A study of Mus musculus with 12 samples.

Results

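The 4 libraries that carry replicate number 1 were compared with the 8 that carry number 2 or 3, out of 12 RNA-seq libraries of 3T3-L1 cells, a mouse embryonic fibroblast line that turns into fat-laden adipocytes after hormonal induction. Each number stands once in each of 4 groups. Cells had been transfected with 20 nM of either a miR-335-5p mimic or a non-targeting (NT) mimic before induction, and were taken at day 3 or at day 6 of differentiation. All cells received the same induction mixture of insulin, IBMX, rosiglitazone and dexamethasone up to day 3, which for the day 6 cells was followed by insulin alone and then by medium without it. Members were chosen by the digit that ends the column name, and the 4 groups entered every fit as a block. What the numbers stand for is not stated in the labels. If a number marks a culture or transfection, the comparison sets 1 culture against 2, and the p-values below then measure only the spread between these libraries, which may be technical. The split of 1 against 2 and 3 was set after the second principal component of these data had been seen.

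3T3-L1 cells stop dividing when they are confluent, and after hormonal induction they re-enter the cell cycle for a limited number of divisions. The transcription factors C/EBPα and PPARγ then switch on the enzymes that make, store and release lipid. Sterol enzymes, mitochondria and secreted proteins of fat cells also increase along this course, while genes of fibroblasts and progenitors decline.

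Number 1 cells differed from the cells of numbers 2 and 3 at both days. They held more mRNA of DNA replication and mitosis, of cholesterol synthesis, and of genes on chromosome 4 and on the first part of the X chromosome. They held less of Slit3, Pdgfra, Sox9 and Cxcl12. Over all groups 1232 of 11703 tested genes were called higher in number 1 (10.5%) and 910 lower (7.78%, edgeR quasi-likelihood test, Benjamini-Hochberg adjusted p below 0.01), and 260 of the higher and 113 of the lower calls reached 2-fold. The median log2 difference of all genes was -0.013. For comparison, numbers 2 and 3 differed from each other in 53 genes, with 13 higher and 40 lower in number 2, and in 9 to 16 genes without any 1 of those 8 libraries. That contrast has 4 libraries a side and a fit with the numbers as 3 levels, under which number 1 gave 2609 calls. As the split was set after the data had been seen, the smaller count between 2 and 3 partly reflects that choice. Summing the 4 libraries of each number, which leaves 1 sample against 2, called 485 genes. Leaving out the number 1 library of the miR-335-5p mimic or the NT mimic at day 6 left 1157 and 1179 calls, and leaving out all libraries of number 2 or of number 3 left 1262 and 841.

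No change of the difference under the mimic was detected. The number 1 effect under the miR-335-5p mimic minus that under the NT mimic gave 0 calls in edgeR, with 128 genes at an unadjusted p below 0.05, and 0 in DESeq2, with 70. This fit left the difference between the days, and that between numbers 2 and 3, in the spread. The 0 calls therefore cannot show that the difference was equal under both mimics. As root mean square log2 differences over genes, number 1 stood 0.446 to 0.534 from number 2 and 0.494 to 0.579 from number 3 within the groups, while numbers 2 and 3 stood 0.297 to 0.364 apart. The same number under the other mimic stood only 0.237 to 0.303 away. The first principal component (76.1% of the variance) separated the days. The second (12.03%) placed the 4 number 1 libraries between 24.5 and 35.4, against -22.4 to -6.91 for the other 8. This is the component after which the split was set, so its values describe the split and do not support it. At day 3 the number 1 libraries also stood at -47.3 and -47.2 on the first component, nearer to the day 6 side than the others at -59.6 to -54.6. Total counts did not set number 1 apart, with 18.2 to 18.9 in units of 1e+06 against 17.7 to 18.8. The genes with a count were slightly more in number 1 within each group, by library 12885 and 12938 at day 3 and 13627 and 13646 at day 6, against 12731 to 12918 and 13500 to 13595.

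The largest differences over all groups were those of a few genes that were nearly silent in 1 set. Xlr, an X-linked member of a lymphocyte-regulated family with several close copies, had 19.7 CPM (counts per 1e+06 after library scaling) in both number 1 libraries of day 3 and 12 and 17.2 CPM in those of day 6. In the other 8 libraries it ran from 0.423 over a median of 0.616 to 1.06 CPM (log2 4.62 ± 0.19 SE, adjusted p = 2.09e-08). No number 1 library overlapped with the others, and reads of its close copies cannot be told apart here.

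Alpl, tissue-nonspecific alkaline phosphatase, had 54.6 and 38.9 CPM in number 1 at day 3 and 19.8 and 24.3 CPM at day 6. The other libraries had 7.01 to 11.6 CPM at day 3 and 2.09 to 2.87 CPM at day 6 (log2 2.69 ± 0.15, adjusted p = 2.94e-07). The mRNA was lower at day 6 in every set, and the gap between the sets was there on both days (log2 2.33 and 3.15). Aplp1, a relative of the amyloid precursor, had 10.9, 11, 5.36 and 6.06 CPM in the number 1 libraries, against 0.199 to 0.998 CPM with a median of 0.518 in the others (log2 3.98). Eml2, a microtubule-binding protein, had 5.91 to 7.33 CPM against 0.845 to 1.74 CPM (log2 2.44).

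The 12 largest genes each way are the largest calls with a mean of at least 5 CPM in the higher set. Number 1 also had to lie beyond both other numbers in all 4 groups. This choice partly sets the counts of days and of overlap, so they are a description. Of the 12 largest higher genes, 7 were called on both days and 12 at day 6. For 7 of the 12 the 4 number 1 libraries all lay above the other 8. Krt13, a keratin of stratified epithelia, was mainly a day 6 difference. It had 62.8 and 64.9 CPM in number 1 at day 6 against 4.27 to 6.71 CPM, but 4.20 and 3.07 CPM at day 3 against 1.52 to 2.48 CPM. Mest, an imprinted gene that hosts miR-335 in an intron, had 2.29 and 2.67 CPM in number 1 at day 3 and 19.2 and 16.5 CPM at day 6. It stood at 0.121 to 1.02 and 1.44 to 4.92 CPM in the other libraries (log2 2.47, adjusted p = 0.000674). It was also higher in number 2 than in number 3 (log2 1.74, adjusted p = 0.00291), so its 3 numbers were graded. Peg3, another imprinted gene, was higher too (log2 2.00), at 7.33 to 13.7 CPM against 1.56 to 3.69 CPM. The proliferin genes Prl2c2 and Prl2c3, placental prolactin relatives first described in dividing 3T3 cells, were higher over all groups (log2 2.13 and 2.69). They are near-identical copies whose reads may have been shared out between them.

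Among the 12 largest lower genes, 10 were called at day 6 and 5 on both days. Slit3, a secreted ligand of Robo receptors, was the most even of them. It had 35.2 and 35.5 CPM in number 1 at day 3 and 31.1 and 34.2 CPM at day 6, against 113.0 to 141 CPM with a median of 133 in the others (log2 -1.95 ± 0.07, adjusted p = 5.3e-09). Its level was much alike at both days and under both mimics within each set. Epb41, a protein of the membrane skeleton, had 0.625 to 1.16 CPM in number 1 and 6.39 to 9.92 CPM in the others (log2 -3.00), and it lies on chromosome 4, where most called genes were higher. Egfr, the receptor of epidermal growth factor, had 2.24 and 3.47 CPM in number 1 at day 3 against 11.9 to 12.7 CPM, and 11.4 and 16.1 CPM at day 6 against 34.8 to 45.4 CPM (log2 -1.75). Fgf10, a growth factor of mesenchyme, had 3.16 to 4.40 CPM against 9.51 to 17.8 CPM (log2 -1.76). Inhbb, Clec3b, Apod and Abi3bp, which encode an activin subunit, tetranectin, a lipocalin and a matrix protein, were also lower (log2 -2.32, -2.16, -2.91 and -2.31). Inhbb and Clec3b were nearly silent in all libraries of day 3, at most 0.352 and 0.235 CPM, so their differences rest on day 6. There Inhbb had 2.73 and 2.09 CPM in number 1 against 8.1 to 20.1 CPM, and Clec3b 3.23 and 2.85 CPM against 8.88 to 21.3 CPM. Abi3bp differed between numbers 2 and 3 as well (log2 -1.16, adjusted p = 0.00294). Rtl5 and Rtl3, retrotransposon-derived genes of the X chromosome, were lower by log2 -1.93 and -1.84. Rtl3 also differed between numbers 2 and 3 (log2 -1.15, edgeR adjusted p = 0.00339). Neither Rtl3 nor Abi3bp was called at either day taken alone.

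**Figure D1:**
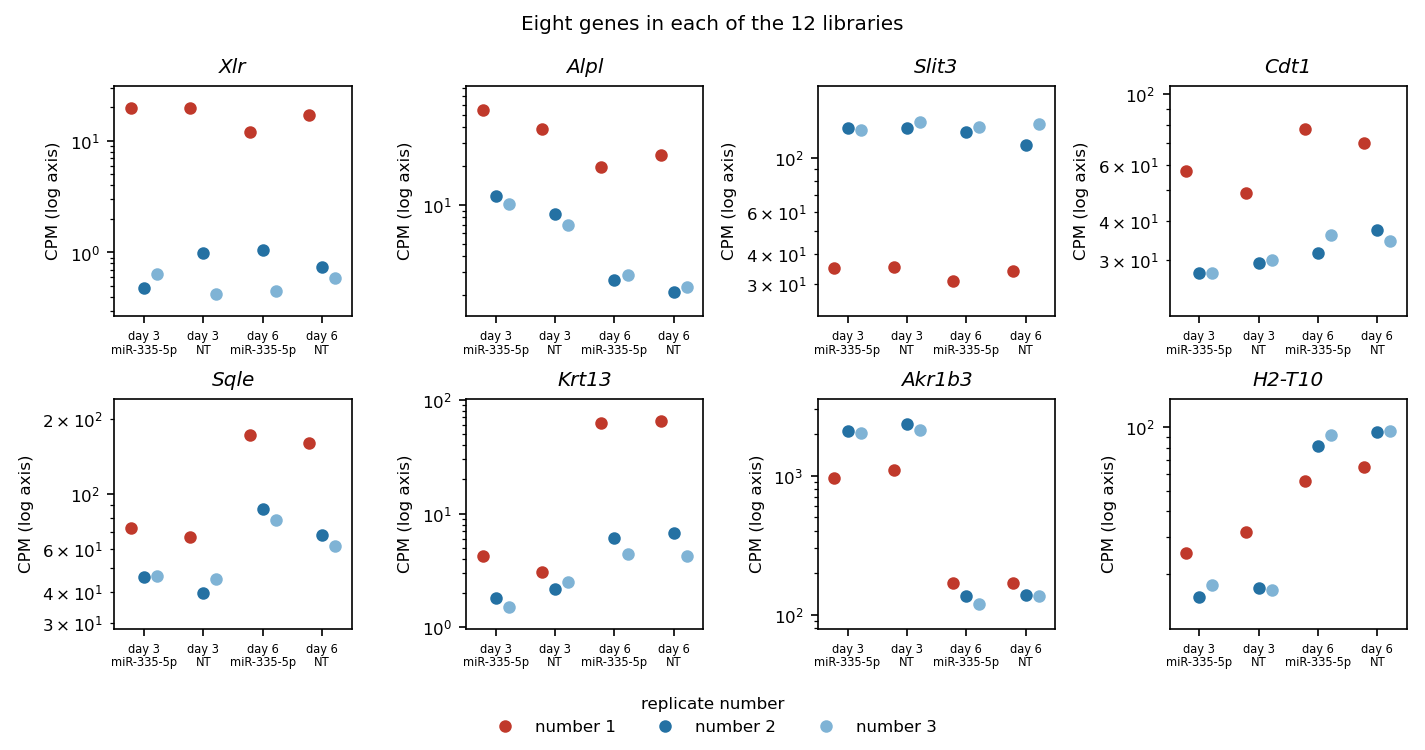
CPM (log axis) of 8 genes in each library, grouped by day and mimic, with number 1 in red left of number 2 (dark blue) and number 3 (light blue). Xlr, Alpl, Cdt1 and Sqle were above and Slit3 below the other numbers in all 4 groups, Krt13 stood far apart at day 6, and Akr1b3 and H2-T10 changed sides between the days.

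The clearest gene group was that of DNA replication and mitosis. Of its 37 members, all tested, 35 were called higher and 0 lower over all groups, beside 10.5% of all genes, and every member had a positive difference (log2 0.46 to 1.21, median 0.77 against -0.013 for all genes). At day 3, 24 members were called higher, where 660 of all genes were called higher (5.64%) and 371 lower (3.17%). At day 6, 36 members were called higher, where 1534 genes were called higher (13.1%) and 1367 lower (11.7%). The medians of the list were 0.62 at day 3 and 0.90 at day 6, and 23 members were called higher on both days.

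Cdt1, which licenses replication origins, had 57.5 and 48.8 CPM in number 1 at day 3 and 77.5 and 70.1 CPM at day 6. The others had 27.4 to 37.5 CPM with a median of 30.8, below every number 1 library (log2 0.99 ± 0.07, adjusted p = 1.4e-06). Bub1, a kinase of the spindle checkpoint, had 26.1, 23.4, 23.4 and 20 CPM in number 1 against 9.02 to 15.8 CPM (log2 0.96). Ccna2, cyclin A2 of S phase and mitosis, had 47.8 to 56.8 CPM in number 1 against 21.7 to 31.6 CPM (log2 0.97). The members that missed the threshold over all groups were the cyclin gene Ccne1 (log2 0.55) and the topoisomerase gene Top2a (log2 0.61). Between numbers 2 and 3, 0 of the 37 were called by edgeR, which called 53 of all genes there and had 1950 at an unadjusted p below 0.05. Replication-dependent histone genes, of which 7 were tested, had 0 calls over all groups and a median of -0.034. Of 11 tested D-type cyclins and CDK inhibitors, 1 was higher (Cdkn2d, log2 0.45) and 2 lower (Cdkn1b, log2 -0.31, and Cdkn2c, log2 -0.27). The call of the list over all groups ran from 31 to 36 members when a library or a number was left out. The counts by day leaned on single libraries, with 1 and 9 members at day 3 without the miR-335-5p or the NT mimic library of number 1, and 13 at day 6 without the miR-335-5p library of number 1.

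The promoters of these genes are shown because members moved together. Windows from 250 bases before to 50 after the annotated start (RefSeq, GRCm38.p6, first window listed per gene) were given for 29 of the 37 members and for 9410 tested genes. The cell cycle genes homology region, TTTGAA or TTCAAA on either strand, is a short element of promoters that are silent in resting cells. Its letters occurred in 12 of the 29 windows (41.4%) and in 1117 of the 9410 (11.9%). Below are 30 bases around it, with the element in capitals, for the 4 called members with the lowest adjusted p that hold it, chosen after their values were seen.
Mcm2: agggctcagcctTTTGAAagctgtgggcgg
Cdc20: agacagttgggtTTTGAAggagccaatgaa
Mki67: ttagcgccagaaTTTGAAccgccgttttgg
Aurka: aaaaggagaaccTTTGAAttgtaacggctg
They lie at chr6:88898833-88898862, chr4:118437344-118437373, chr7:135716478-135716507 and chr2:172370521-172370550, all on the minus strand, and encode a subunit of the replicative helicase, an activator of the anaphase-promoting complex, the proliferation marker Ki-67 and Aurora kinase A. Mcm2 stood at 121 to 179 CPM in number 1 and 79.6 to 103 CPM in the others (log2 0.69). Cdc20, Mki67 and Aurka were higher by log2 1.04, 0.73 and 0.94. A match of letters is not a binding site, and whether any factor used these was not measured.

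Cholesterol genes were higher in number 1 mainly at day 6. Of the 23 genes of cholesterol synthesis and uptake, 14 were called higher and 0 lower over all groups (10.5% and 7.78% of all genes), with a median of log2 0.73. At day 3 the count was 7 higher and 1 lower (median 0.37, beside 5.64% and 3.17% of all genes) and at day 6 it was 20 higher and 0 lower (median 1.01, beside 13.1% and 11.7%). For 8 members the difference between the days was itself called (17 with the replicate numbers as a block), all 8 with a larger difference at day 6. These calls between the days did not hold with the 2 mimics of each number and day summed, as given below. Ebp, the sterol isomerase encoded on the X chromosome, had 25.1 and 28.1 CPM in number 1 at day 3 against 10.7 to 15.0 CPM, and 49.0 and 44.3 CPM at day 6 against 17.0 to 20.0 CPM (log2 1.18, adjusted p = 3.6e-06). Sqle, squalene epoxidase, had 73.0 and 66.6 CPM in number 1 at day 3 against 39.7 to 46.6 CPM. At day 6 it had 173 and 161 CPM against 61.2 to 86.5 CPM (log2 1.20 at that day, adjusted p = 7.71e-07). Dhcr7, which makes the last step to cholesterol, was higher by log2 0.86 over all groups, with 88.1 and 78.6 CPM at day 6 against 36.4 to 46.6 CPM. At day 6 the members without a call were Sc5d, Srebf2 and Tm7sf2 (log2 0.27, 0.33 and 0.33). Leaving out the miR-335-5p library of number 1 at day 6 left 9 of the 14 calls over all groups, while the day 6 count stayed at 16 to 23 without any library or number. The 8 calls between the days became 2 and 1 without the miR-335-5p or the NT library of number 1 at day 3, 2 without either number 1 library of day 6, and 5 without number 3 of the miR-335-5p mimic at day 6. They became 18 without all libraries of number 2.

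Hsd17b7 and Pmvk stood on opposite sides at the 2 days. Hsd17b7, a reductase of the pathway, had 57.2 and 53.5 CPM in number 1 at day 3 against 63.5 to 74.1 CPM, and 63.4 and 62.5 CPM at day 6 against 26.0 to 34.8 CPM (difference between the days log2 1.40, adjusted p = 0.000142). Pmvk, phosphomevalonate kinase, was lower in number 1 at day 3, at 96.6 and 89.3 CPM against 130.5 to 170.3 CPM, and higher at day 6, at 48.8 and 42.6 CPM against 21.9 to 27.7 CPM. It was chosen after its values were seen. The sterol response element TCACNCCAC, the letters that SREBP factors bind in cholesterol genes, was found on either strand in 1 of the 16 member promoters given and in 95 of the 9410 (1.01%). The match was that of Hmgcs1, the HMG-CoA synthase gene (chr13:119690204-119690233, plus strand, GRCm38.p6), shown with the element in capitals.
Hmgcs1: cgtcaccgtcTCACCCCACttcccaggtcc
Hmgcs1 itself was called higher over all groups (log2 0.69) and at day 6 (log2 0.98).

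Fat cell genes were higher in number 1 in part. Of 20 tested genes of adipocyte identity, 11 were called higher and 0 lower over all groups (median log2 0.41, beside 10.5% of all genes higher). There were 3 higher at day 3 (5.64% of all genes) and 8 at day 6 (13.1%), with 2 on both days. Cebpa, the transcription factor C/EBPα, had 13.9 and 12.6 CPM in number 1 at day 3 against 4.34 to 5.82 CPM, and 23.9 and 24.8 CPM at day 6 against 9.16 to 13.3 CPM (log2 1.26, adjusted p = 5.76e-06). Lipe, hormone-sensitive lipase, had 426 and 401 CPM at day 3 and 481 and 399 CPM at day 6, against 191 to 238 and 326.0 to 344 CPM (log2 0.68). Car3, a carbonic anhydrase of fat cells, was higher by log2 1.73. Pparg, the receptor that rosiglitazone binds, did not pass (289 and 292 CPM in number 1 at day 3 against 227 to 257 CPM, log2 0.21, adjusted p = 0.0147), nor did Adipoq, which encodes adiponectin (log2 0.41, adjusted p = 0.0799). These last 2 were chosen after their values were seen. Without the miR-335-5p library of number 1 at day 6 the list had 5 calls, and without all libraries of number 3 it had 7. The summed level of its 22 genes was 13700 to 14000 CPM in number 1 at day 3 against 10700 to 13800 CPM, and 16500 to 18100 CPM at day 6 against 12700 to 14200 CPM. More fat cells and more of these mRNAs per cell cannot be told apart in bulk RNA.

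Lipid enzymes had fewer calls over all groups, though not at day 6. In lipogenesis and triglyceride synthesis 5 of 20 genes were higher and 0 lower over all groups, where 10.5% and 7.78% of all genes were. Scd1, stearoyl-CoA desaturase, had 1541 and 1525 CPM in number 1 at day 3 against 808 to 1054 CPM, and 3660 and 3246 CPM at day 6 against 1681 to 2036 CPM (log2 0.83). Pnpla3, a lipid droplet hydrolase, was higher by log2 3.21 at low levels, 3.92 to 6.87 CPM against 0.160 to 1.53 CPM. In lipolysis and fatty acid oxidation 4 of 22 genes were higher (10.5% of all genes), among them Mgll, monoglyceride lipase (log2 1.45). At day 6, 12 of these 22 genes were called higher and 0 lower, beside 13.1% and 11.7% of all genes. Of the 20 lipogenesis genes, 8 were higher and 1 lower at that day. At day 3 the counts were 3 and 0, and 2 and 1 (5.64% and 3.17% of all genes). Of 19 adipogenic transcription factors, 1 was higher (Ebf2, log2 0.385) and 4 lower (10.5% and 7.78% of all genes), with Zfp467 at 5.48 and 6.88 CPM in number 1 at day 3 against 14.3 to 17.5 CPM and 19.3 and 18.4 CPM at day 6 against 30.5 to 35.4 CPM.

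**Figure D2:**
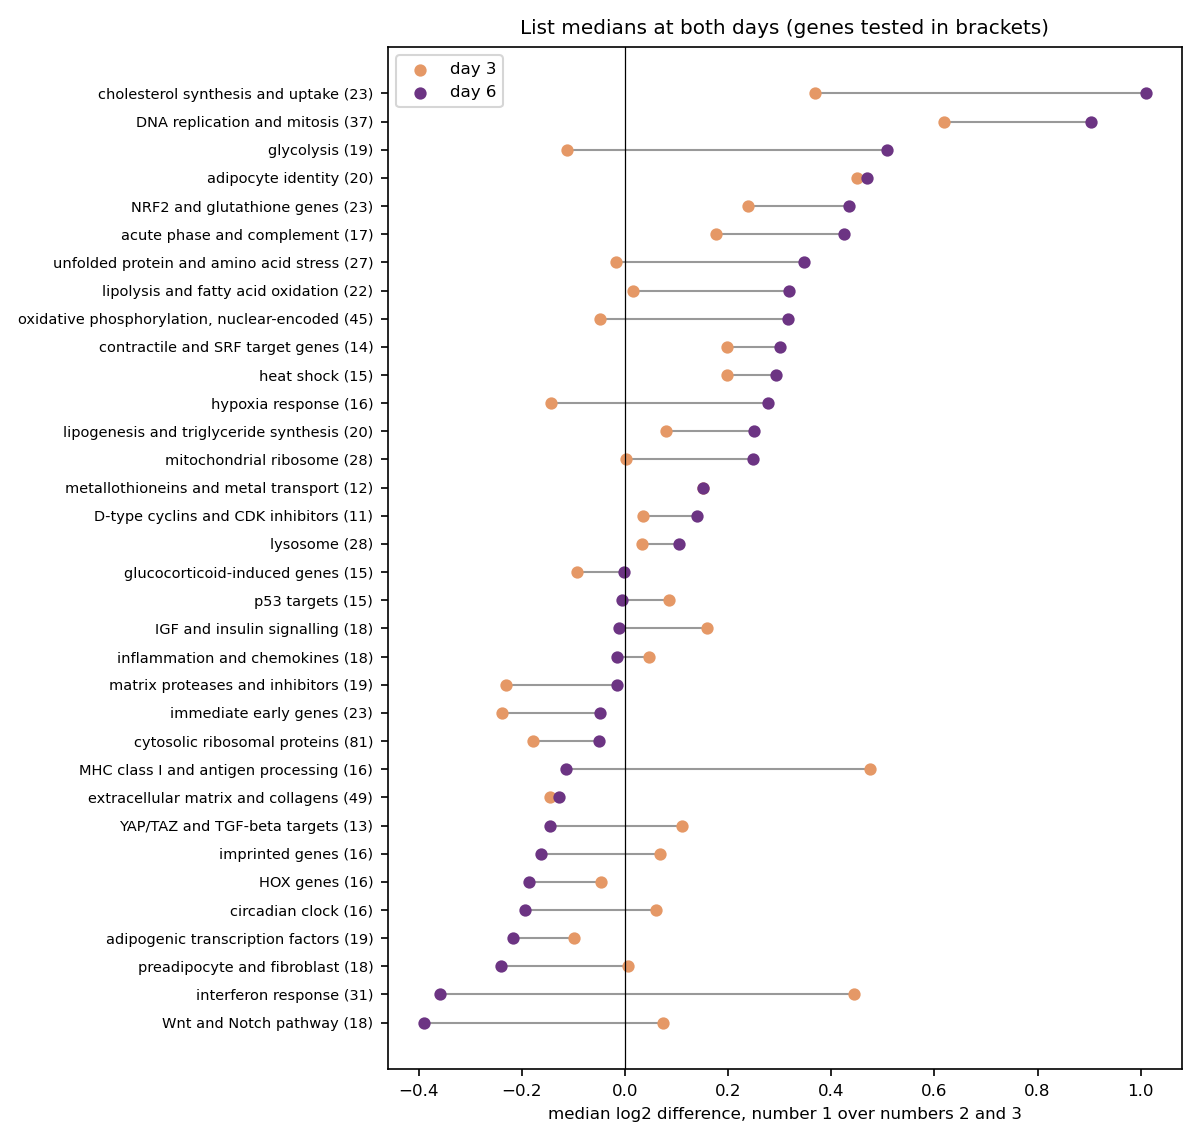
Median log2 difference of number 1 over numbers 2 and 3 at day 3 (orange) and day 6 (purple) for the gene lists with at least 10 tested genes, markers of other cell types left out. Farthest to the right lay DNA replication and mitosis at day 3 (0.62) and cholesterol genes at day 6 (1.01). Their medians on the other day were 0.90 and 0.37. Interferon response and MHC class I genes were positive at day 3 and negative at day 6.

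Genes of energy metabolism differed at day 6. Of 45 tested nuclear-encoded genes of oxidative phosphorylation, 26 were called higher at day 6 and 0 lower (13.1% and 11.7% of all genes), and all 45 had a positive difference (median log2 0.32, against -0.026 for all genes). At day 3 the list had 0 calls, with a median of -0.049, and for 1 member the difference between the days was called. Sdhb, a subunit of complex II, had 125 and 122 CPM in number 1 at day 6 against 76.5 to 86.0 CPM, and 117 and 128 CPM at day 3 against 97.1 to 109 CPM. Of 19 glycolysis genes 13 were called higher at day 6 (13.1% of all genes) and 1 at day 3 (5.64%), with medians of 0.51 and -0.11, and for 6 the difference between the days was called. Pfkfb3, which makes an activator of phosphofructokinase, was the one called at day 3 (log2 0.50). With the replicate numbers as a block these counts were 18 at day 6 and 13 between the days. The calls between the days did not hold with the 2 mimics of each number and day summed, as given below. Oxidative phosphorylation had 1 call without the miR-335-5p library and 10 without the NT library, and 16 without number 2 or number 3 of the miR-335-5p mimic or number 3 of the NT mimic at day 6. Glycolysis had 9 calls without the miR-335-5p library of number 1 and 3 without the NT library, and its 6 calls between the days became 0 without either day 3 library of number 1 or the day 6 NT library of number 1. They became 3 without the miR-335-5p library of number 1, 2 without number 2 of either mimic and 3 without number 3 of the NT mimic, all at day 6, and 14 without all libraries of number 3.

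Antioxidant and chaperone genes were partly higher. In the NRF2 and glutathione list 10 of 23 genes were higher and 0 lower over all groups (10.5% and 7.78% of all genes), with Gsr, glutathione reductase, at 78.0 and 79.3 CPM in number 1 at day 6 against 47.2 to 55.3 CPM. G6pdx, the first enzyme of the pentose phosphate pathway, was higher by log2 0.42 over all groups. In the heat shock list 6 of 15 were higher beside the same 10.5%, with the small chaperone gene Hspb8 at 72.6 to 75.4 CPM in number 1 against 41.4 to 60.4 CPM (log2 0.56). Hspa5, the main chaperone of the endoplasmic reticulum, had 1833 and 2089.6 CPM in number 1 at day 6 against 903 to 1122 CPM, and 612 and 581 CPM at day 3 against 477 to 513 CPM. In its list of unfolded protein and amino acid stress, 5 of 27 were higher and 1 lower over all groups (10.5% and 7.78% of all genes), and 13 higher and 2 lower at day 6 (13.1% and 11.7%), so that the lower calls were no more than the share of all genes. Metallothionein Mt2 was higher by log2 1.11. Cytosolic ribosomal protein genes had 1 lower call of 81, with medians of -0.18 at day 3 and -0.052 at day 6.

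Whether the sets differed in the same way on both days was read from 1 fit, with the set effect taken within each day. The same way on both days were 401 genes called higher (3.43%) and 175 called lower (1.5%). These 576 genes were 55.9% of the 1031 called at day 3 and 19.9% of the 2901 called at day 6, and 32 genes were called in opposite directions. Of the genes called at day 3, 85.2% had the same sign at day 6, and of those called at day 6, 79.4% had the same sign at day 3, against 65.4% of all genes. The days do not share libraries, but they share the replicate numbers and, in this fit, 1 estimate of the spread for each gene. The calls of the 2 days are therefore not independent. In all 4 groups number 1 lay above both other numbers in 1697 genes (14.5%) and below both in 1620 (13.8%). With the replicate numbers as a block of 3 levels, 2561 genes were called at day 3, 4742 at day 6 and 1464 the same way on both days. With the 2 mimics of each number and day summed, which leaves 1 sample against 2 at each day, 22 genes were called at day 3, 271 at day 6 and 16 the same way on both days. The 1031 calls of day 3 became 144 and 168 without the miR-335-5p or the NT library of number 1, and the 2901 of day 6 became 652 and 1100. Without all libraries of number 2, 2146 genes were called at day 3 and 1172 the same way on both days. The 576 became 113 and 129 without the day 3 libraries of number 1, and 254 and 358 without those of day 6.

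**Figure D3:**
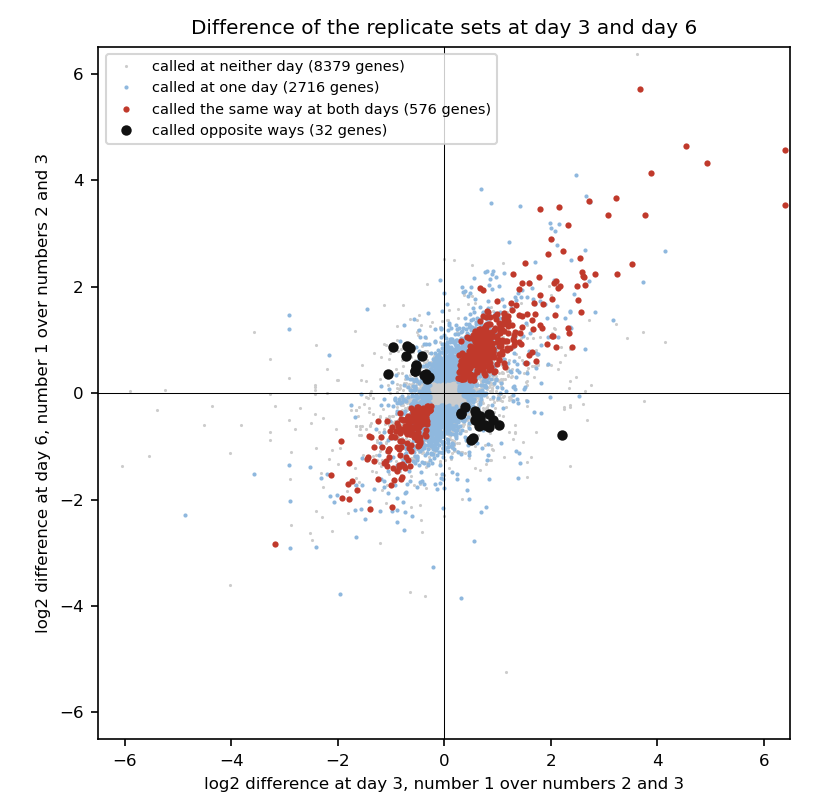
Each point is 1 of 11703 tested genes, with its log2 difference of number 1 over numbers 2 and 3 at day 3 on the x axis and at day 6 on the y axis, and 2 genes lie outside the range. The 576 genes called the same way (red) fill the upper right and lower left, and the 32 called in opposite directions (black) the other corners.

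The difference between the days was tested directly. It was called for 393 genes, 188 with a higher value for number 1 at day 6 than at day 3 (1.61%) and 205 with a lower one (1.75%). The split depended on the scaling, with 238 and 169 under RLE size factors and 442 and 291 in DESeq2, and the block of 3 numbers called 1771. With the 2 mimics of each number and day summed, edgeR called 0 genes between the days (1698 at an unadjusted p below 0.05), so no call given here held in that setting. Leaving out the miR-335-5p or the NT library of number 1 left 32 and 29 calls for day 3 and 64 and 61 for day 6, and leaving out all libraries of number 2 or of number 3 gave 955 and 1094. The count was 261 without number 2 of the NT mimic at day 3, 214 and 215 without number 2 of either mimic at day 6, and 245 without number 3 of the NT mimic at day 6.

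Akr1b3, aldose reductase, had 964 and 1103 CPM in number 1 at day 3 against 2036 to 2364 CPM, and 169 and 169.9 CPM at day 6 against 119 to 139 CPM (log2 -1.06 at day 3 and 0.35 at day 6, adjusted p of the difference 4.94e-05). Number 1 was thus lower at day 3, when the transcript was abundant in all libraries, and slightly higher at day 6. Pea15a, an adaptor of ERK signalling, had 213 and 248 CPM in number 1 at day 3 against 481 to 537 CPM, while at day 6 the sets were close (133 and 127 CPM against 136.0 to 146 CPM). Pgd, of the pentose phosphate pathway, was close at day 3 (423 and 414 CPM against 446 to 454 CPM) and apart at day 6 (256 and 253 CPM against 153 to 154 CPM). S100a1, a calcium-binding protein, changed sides (log2 -0.43 and 0.70), as did the dynein light chain gene Dynlt1b (log2 -0.55 and 0.41), whose near-identical copies share reads.

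The named genes with a lower difference at day 6 did not belong to 1 fixed list. Vcam1, a vascular cell adhesion molecule that fibroblasts also make, had 101 and 105 CPM in number 1 at day 3 against 60.0 to 71.8 CPM, and 112 and 119.6 CPM at day 6 against 145 to 165 CPM. Phldb1, a membrane-associated protein, also changed sides (log2 0.83 and -0.39). Angptl2, a secreted angiopoietin-like protein, was higher at day 3 only, at 58.4 and 56.3 CPM against 17.3 to 22.2 CPM, with 80.5 and 76.7 CPM at day 6 against 77.0 to 105 CPM (difference log2 -1.71, adjusted p = 9.08e-05). Sh3tc1 behaved alike (log2 1.37 and -0.19).

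Genes of MHC class I, which present peptides at the cell surface, made up the list with the most falls between the days. Of its 16 tested genes 7 were called higher at day 3 and 0 lower (median log2 0.48, beside 5.64% and 3.17% of all genes), and 0 higher and 4 lower at day 6 (median -0.12, beside 13.1% and 11.7%). For 6 the difference was called (10 with the replicate numbers as a block), but these calls did not hold with the mimics summed, as said above. H2-T10, a non-classical class I gene outside that list, had 25.4 and 31.7 CPM in number 1 at day 3 against 15.7 to 17.8 CPM, and 55.7 and 65.0 CPM at day 6 against 81.8 to 95.8 CPM (difference log2 -1.35, adjusted p = 9.08e-05). The neighbouring H2-T-ps moved in the same way (log2 0.54 and -0.85). Class I genes of the H2-T group are close in sequence, and their reads may have been shared out. B2m, the light chain common to class I molecules, had 254 and 288 CPM in number 1 at day 3 against 154 to 181 CPM, and 375 and 364 CPM at day 6 against 381 to 424 CPM. H2-D1 and H2-K1, the classical heavy chains, were higher at day 3 (log2 0.71 and 0.64) and near 0 at day 6 (log2 0.07 and -0.02). Tap1, of the peptide transporter, was higher at day 3 (log2 0.46). B2m, H2-D1, H2-K1, H2-T23 and Tap1 were chosen after their values were seen. The 7 calls at day 3 became 2 and 3 without the miR-335-5p or the NT library of number 1 at day 3. The 6 between the days became 1 without either of these, and 2 and 1 without the miR-335-5p or the NT library of number 1 at day 6.

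Interferon response genes had 3 of 31 called higher at day 3 and 0 lower (5.64% and 3.17% of all genes), and 1 higher and 7 lower at day 6 (13.1% and 11.7%). The day 3 count is close to the share of all genes. The medians were 0.44 and -0.36, with 5 falls and 1 rise between the days. Gbp3, an interferon-induced GTPase chosen after its values were seen, had 1.06 and 0.909 CPM in number 1 at day 3 against 0.180 to 0.235 CPM, and 5.10 and 5.95 CPM at day 6 against 7.98 to 11.1 CPM. Letters of the interferon-stimulated response element, taken as GAAA, any 2 bases and GAAA on either strand, stood in 4 of 14 member promoters given for class I and in 273 of the 9410 (2.90%). The 3 of these genes that were called at day 3 are shown, with the element in capitals, read in the reverse orientation for H2-T23 and H2-T22.
B2m: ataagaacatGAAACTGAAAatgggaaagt
H2-T23: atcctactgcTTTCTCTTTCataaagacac
H2-T22: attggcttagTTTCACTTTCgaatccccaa
They lie at chr2:122147538-122147567 (plus strand), chr17:36032806-36032835 and chr17:36042914-36042943 (both minus strand) in GRCm38.p6. The 3 motifs searched do not contain one another.

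Some fibroblast and signalling genes were lower in number 1. Of 18 preadipocyte and fibroblast genes 1 was higher and 3 lower over all groups (median -0.23, beside 10.5% and 7.78% of all genes). The higher one was Cd44 (log2 0.574), at 57.3 and 56.8 CPM in number 1 at day 6 against 35.1 to 45.3 CPM. At day 3 the signs were split, with 9 positive and 9 negative differences (median 0.0066). The calls were not split, with 0 members higher and 5 lower (5.64% and 3.17% of all genes). At day 6 the calls were 1 higher and 3 lower (13.1% and 11.7%), and 2 members were called lower on both days. The summed level of this list overlapped between the sets, at 2440 to 2510 CPM in number 1 against 2320 to 2760 CPM at day 3, and 3570 to 3890 CPM against 3750 to 4290 CPM at day 6. Pdgfra, the receptor that marks adipose progenitors, had 178 and 169 CPM in number 1 at day 3 against 260.1 to 346 CPM, and 183 and 202 CPM at day 6 against 529.5 to 642 CPM (log2 -1.17, adjusted p = 0.000155). The gap was wider at day 6 (difference log2 -0.765, adjusted p = 0.00859). Sox9, a transcription factor of chondrogenic and progenitor cells, had 25.0 and 28.5 CPM at day 3 against 39.2 to 58.9 CPM, and 31.7 and 32.0 CPM at day 6 against 92.7 to 107 CPM (log2 -1.29). Cxcl12, a chemokine of stromal cells, had 458 and 484 CPM at day 3 and 336 and 309.6 CPM at day 6, against 768 to 1039 CPM with a median of 851 in the others (log2 -1.17, adjusted p = 4.1e-05). Egr1 and Nr4a1, transcription factors that serum induces within minutes, were lower (log2 -1.22 and -0.92), while Atf3 of the same list was higher (log2 1.40).

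Of 49 matrix genes 3 were higher and 8 lower over all groups (median -0.11), where 10.5% and 7.78% of all genes were, so the higher calls were below the share of all genes. Col12a1, a fibril-associated collagen, was higher by log2 1.51 and the proteoglycan gene Prelp by log2 0.97, at 194 and 173 CPM in number 1 at day 6 against 64.9 to 97.9 CPM. Here numbers 2 and 3 differed as well, with 7 of the 49 lower in number 2. Col11a1, chosen after its values were seen, showed this gradation, with 26.1 and 28.4 CPM in number 1 at day 3, 35.8 and 35.5 CPM in number 2 and 76.8 and 76.8 CPM in number 3. The imprinted genes had 3 higher and 4 lower calls of 16, beside the same shares. The target genes that the study put forward differed little, Gna12 at log2 0.12 (adjusted p = 0.184) and Gga3 at log2 -0.28 (adjusted p = 0.0355).

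The genes called higher were unevenly spread over the chromosomes. On chromosome 4, 223 of 739 tested genes were higher (30.2%) and 12 lower (1.62%), with a median difference of log2 0.21. On the X chromosome 114 of 384 were higher (29.7%) and 18 lower (4.69%), with a median of 0.12. Elsewhere the medians lay between -0.094 (chromosome 16) and 0.0042 (chromosome 9), with 8.46% of 10580 genes higher and 8.32% lower. Together 337 of the higher genes, 27.4% of them, lay on chromosomes 4 and X, which hold 9.60% of the tested genes. This was looked for after the values were seen, and no test is given.

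The chromosome 4 median was 0.24 and 0.20 in the miR-335-5p and NT groups of day 3 and 0.19 and 0.21 in those of day 6, while the same median between numbers 2 and 3 lay between -0.0065 and 8.3e-05. On chromosome 4 more than the usual share of genes were higher than the mean of the other numbers in all 4 groups, 52.2% against 19.2% outside chromosomes 4 and X. Along chromosome 4, cut into 30 blocks of neighbouring tested genes, every block had a positive median on both days (0.077 to 0.39 over all groups). On the X chromosome the difference was mainly in the first part. The first 5 of 16 blocks held 120 genes, 73 higher and 0 lower, with block medians of 0.15 to 0.78. Block 6 had a median of 0.28, with 9 higher and 1 lower, and block 7 a median of 0.084, with 3 higher and 0 lower. The last 9 blocks held 216 genes, 29 higher and 17 lower, with medians of -0.098 to 0.059.

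In the first X block, which runs from Vamp7 to Hdac6, 21 of 24 genes were called higher (median 0.80 at day 3 and 0.79 at day 6). Spry3, an antagonist of receptor tyrosine kinases assigned to the X chromosome, had 19, 20.4, 8.49 and 9.41 CPM in the number 1 libraries against 0.374 to 6.24 CPM (log2 2.67). Maoa, monoamine oxidase A, had 56.8 to 82.0 CPM against 25.4 to 30.5 CPM (log2 1.31), with no overlap between the sets, and lies in the second block. Fmr1, which encodes an RNA-binding protein of translation control, ended the fifth block and had 176 to 195 CPM against 76.0 to 118 CPM (log2 1.02). Shroom4, an actin-binding protein, and Plp2, a membrane proteolipid, were higher by log2 1.49 and 1.08. Maoa, Fmr1, Shroom4 and Plp2 were chosen after their values were seen. Without chromosomes 4 and X in the fit, 1639 genes were called over all groups, and the lists kept 33 of 35 (DNA replication and mitosis), 12 of 14 (cholesterol) and 10 of 11 calls (adipocyte identity) in number. Among the 433 blocks of other chromosomes the lowest median was -0.64, in a block of 25 genes on chromosome 18 with 4 lower calls. That block runs from Pcdha12 to Pcdhga8, both protocadherin genes. Some genes of this family share exons, and their counts are uncertain. Copy number was not measured in these libraries.

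**Figure D4:**
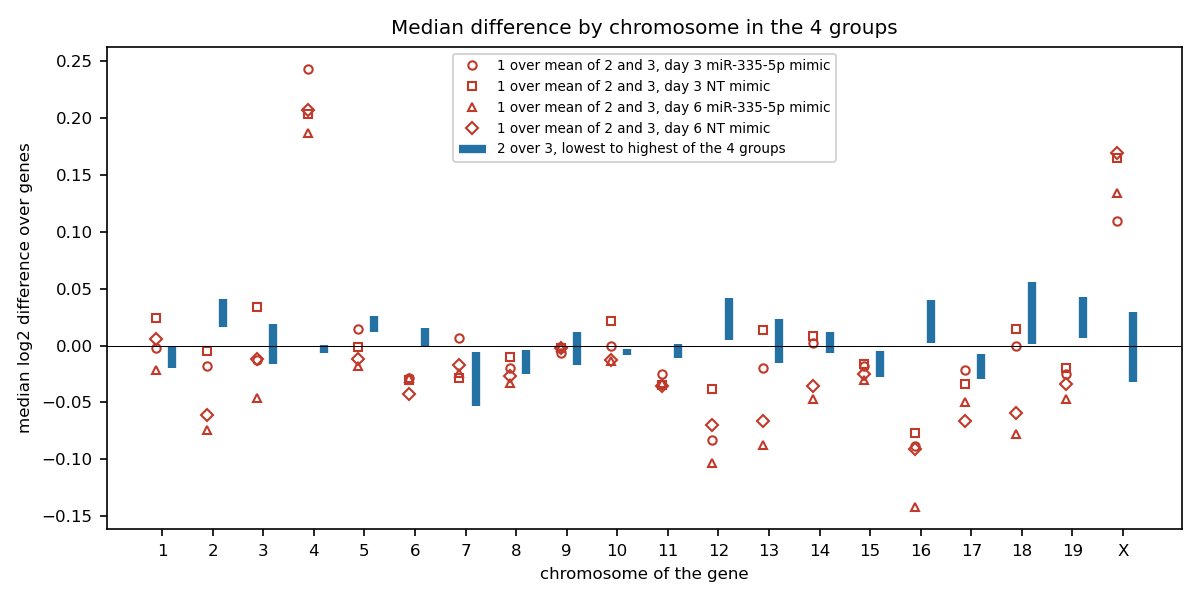
Median log2 difference over the tested genes of each chromosome, with number 1 over the mean of numbers 2 and 3 in each of the 4 groups (red symbols) and the range of number 2 over number 3 across the groups (blue bars). In all 4 groups chromosome 4 (0.19 to 0.24) and the X chromosome (0.11 to 0.17) stood above the others, and the blue bars lay near 0.

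**Figure D5:**
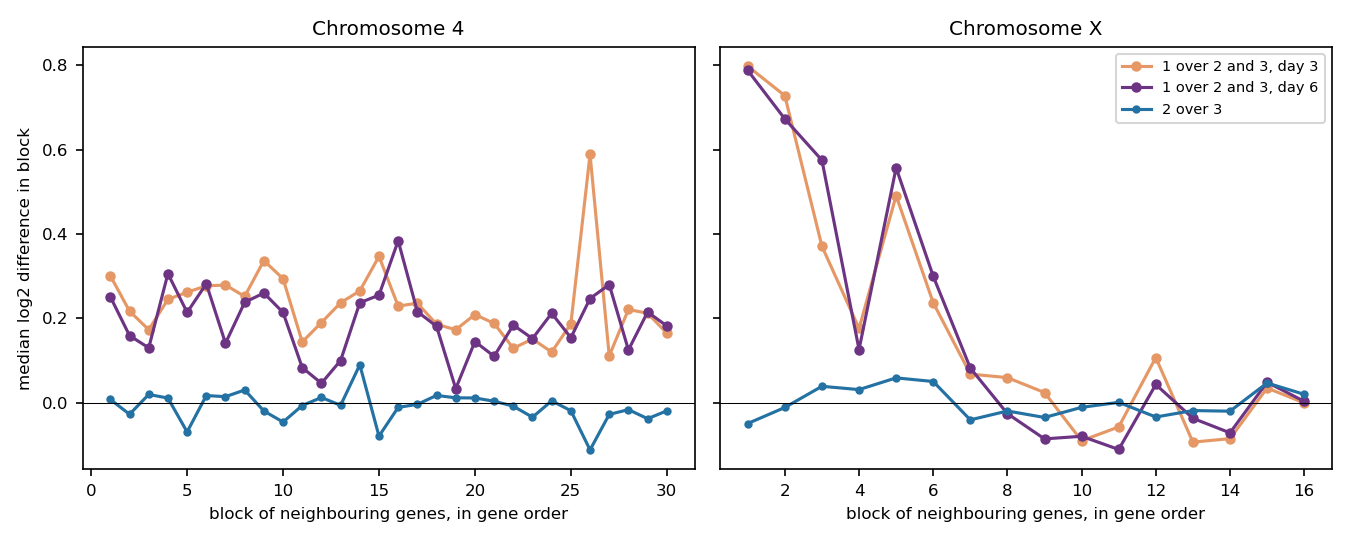
Median log2 difference in blocks of about 24 neighbouring tested genes along chromosome 4 and the X chromosome, in gene order, for number 1 over numbers 2 and 3 at day 3 (orange) and day 6 (purple) and for number 2 over number 3 (blue). Chromosome 4 was raised in all 30 blocks, and the X chromosome in its first blocks, with medians of 0.80 at day 3 and 0.79 at day 6 in the first and near 0 in the last 9.

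Markers of other cell types were not equal between the sets. Not all of them were low, with Spp1 at up to 78.4 CPM and Alpl at up to 54.6 CPM. The summed level of 9 epithelial markers was 8.17 to 9.21 CPM in number 1 at day 3 against 2.06 to 3.54 CPM, and 48.9 to 55.5 CPM at day 6 against 19.6 to 23.7 CPM. All 3 tested members were called higher, Krt8, Krt18 and Krt19, which are keratins of simple epithelia. Krt19 had 7.73 and 11.6 CPM in number 1 at day 6 against 0.298 to 0.654 CPM. Cdh1, which encodes E-cadherin and defines epithelium, was at 0 in 11 of the 12 libraries and at 0.0509 CPM in the other. The 12 macrophage markers summed to 1.90 to 2.27 CPM in number 1 at day 3 against 0.480 to 1.03 CPM and to 11.2 to 12.6 CPM at day 6 against 4.38 to 5.96 CPM, mostly from Cd14 and the lysosomal protein gene Cd68. Among them Itgam and Fcgr1 were at 0 in all libraries. Muscle and bone markers summed to 66.7 to 85.2 CPM in number 1 at day 3 against 31.8 to 37.1 CPM, and to 135 to 150 CPM at day 6 against 73.6 to 81.4 CPM. Of these 10 genes 6 were tested and 4 higher, namely Alpl, Spp1, Ibsp and Des, which encode alkaline phosphatase, osteopontin, bone sialoprotein and desmin, while Sp7, an osteoblast factor, stayed at or below 0.298 CPM. Runx2, another osteoblast factor, was lower in number 1 at day 6, at 20.3 and 21.4 CPM against 31.7 to 35.6 CPM. Cartilage markers summed to 3.31 to 3.54 CPM in number 1 at day 6 against 4.90 to 8.20 CPM. Endothelial and neural markers summed to at most 1.72 and 5.77 CPM in any library. The part of such markers in the differences above was not tested.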

How the data were processed

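RNA of 12 3T3-L1 libraries was sequenced by the authors, who deposited expected counts per gene (RSEM-type estimates). The submitters' processing notes name mm39, HISAT2 2.2.1 and RSEM 1.3.1 without their roles. Of the deposited values 3.369% were not whole (tolerance 1e-06), and all were rounded. Libraries held 17.691 to 18.937 counts in units of 1e+06, and low values rest on few reads. Genes were filtered (filterByExpr), scaled (TMM) and tested with edgeR 4.0.16 (robust quasi-likelihood, R 4.3.3) with the 4 groups as block, and called at a Benjamini-Hochberg adjusted p below 0.01. DESeq2 1.42.0 and limma 3.58.1 (voom), RLE scaling, no filter, sums over mimics or numbers, other thresholds and leaving out libraries were alternatives. Scripts were tested on simulated data.

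The members, the split and the 42 gene lists were chosen with earlier results of these data known. Genes named were the 12 largest calls each way over all groups (mean of at least 5 CPM in the higher set, number 1 beyond both other numbers in 4 of 4 groups), the 3 calls with the lowest adjusted p of each list with at least 3 calls, the 6 each way with the lowest adjusted p between the days (at least 5 CPM in a group), and Mest, Gna12 and Gga3. Further genes are said to be chosen after their values were seen, and members of lists are also named to complete a count.

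Replicate numbers paired the libraries. Over 18 pairs of groups and numbers, libraries that carried the same number had residuals with a correlation of 0.485 to 0.825 on the same day, and of 0.253 to 0.541 across the days. Gene names, chromosomes and gene order came from RefSeq on GRCm38.p6 (16387 of 16414 IDs matched), promoter sequences from the same build. As that build differs from mm39, coordinates are given only for the promoter windows shown, on GRCm38.p6.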

Additional observations from a re-analysis of the deposited data

Results flagged for a closer look

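The difference between number 1 and numbers 2 and 3 was itself different at the 2 days for 17 of the genes named by rule, by edgeR's test of the day 6 difference minus the day 3 difference. With the mimics summed none of these calls held, since 0 genes were called (1698 at an unadjusted p below 0.05). Genes chosen after their values were seen, among them Pmvk and B2m, are not counted here. Values are given on the log2 scale, and no explanation was tested. The difference was higher at day 6 for Krt13 by 2.70, Akr1b3 by 1.41, Hsd17b7 by 1.40, S100a1 by 1.12, Pea15a by 1.02, Dynlt1b by 0.965, Pgd by 0.835, Mt1 (a metallothionein) by 0.805 and Hspa5 by 0.697. It was lower at day 6 for Angptl2 at -1.71, Sh3tc1 at -1.56, H2-T-ps at -1.39, H2-T10 at -1.35, Phldb1 at -1.22, Vcam1 at -1.08, Myh11 (smooth muscle myosin) at -1.0 and Pdgfra at -0.765. For Krt13 the adjusted p was 0.00041, for Myh11 0.00989, for Mt1 0.00106 and for Hspa5 0.00589. Of these genes 12 were named because their difference between the days had a low adjusted p, so that their sizes are a description.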

How the results depend on the processing

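No value of a gene named by rule and called in the main fit changed sign under the alternatives run. Neither median of chromosomes 4 and X did. Gna12 and Gga3, which were not called, are left out of this statement. The split of the calls between the days depended on the scaling. Counts are given in the order all groups, day 3, day 6, between the days, and the same way on both days. They were 438, 22, 271, 0 and 16 with the mimics summed (with 1698 genes at an unadjusted p below 0.05 between the days), 1056, 458, 1755, 89 and 254 under voom with day and number as a random block, 279, 94, 395, 1 and 54 in the NT mimic only, and 409, 51, 452, 0 and 35 in the miR-335-5p mimic only. They were 3844, 2206, 4675, 1324 and 1255 at an adjusted p below 0.05, and 373, 205, 511, 89 and 105 with a log2 difference of at least 1, where number 2 against 3 gave 239 and 15. With the replicate numbers as a block of 3 levels they were 2609, 2561, 4742, 1771 and 1464, and this block changed no call of a gene named by rule. Other settings did. Of the genes named over all groups, 53 of 107 lost their call with the mimics summed, 49 of 107 with the libraries of a number summed, 63 of 106 in the NT mimic only, 54 of 107 in the miR-335-5p mimic only and 23 of 108 under voom. All 12 named for the difference between the days were lost with the mimics summed and in either mimic alone. DESeq2 gave 733 between the days, and summing the libraries of a number gave 485 over all groups. Without chromosomes 4 and X, chosen after seeing the data, they were 1639, 790, 2462, 385 and 412.

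Leaving out a library or a number gave 841 to 2143, 144 to 2146, 652 to 3884, 29 to 1094 and 113 to 1172, and 9 to 16 for number 2 against 3. The lists of DNA replication and mitosis, cholesterol and adipocyte identity then had 31 to 36, 9 to 18 and 5 to 11 calls, and the medians of chromosomes 4 and X were 0.202 to 0.221 and 0.11 to 0.136. Calls of these 3 lists were 15, 5 and 2 in the NT mimic only and 6, 2 and 4 with a log2 difference of at least 1. Cholesterol had 8 with the mimics summed and in the miR-335-5p mimic only. Adipocyte identity had 4 with the mimics summed, 6 under voom and in the miR-335-5p mimic only, and 7 with the libraries of a number summed. The cause of these moves was not tested, and settings that sum or omit libraries have fewer samples.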

Other observations

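Further genes of secretion and inflammation differed between the sets. Of 17 tested acute phase and complement genes 6 were higher and 3 lower over all groups (10.5% and 7.78% of all genes). Hp, which encodes haptoglobin, had 226.5 and 226.1 CPM in number 1 at day 3 against 86.9 to 162.7 CPM, and 168 and 191 CPM at day 6 against 34.3 to 50 CPM (log2 1.46, edgeR adjusted p = 0.00125). Orm1, an orosomucoid, and Masp1, a protease of the complement lectin pathway, were higher by log2 1.13 and 1.34. Ccl9, a chemokine, had 30.1 and 31.2 CPM in number 1 at day 6 against 9.36 to 12.6 CPM (log2 1.66). Of 16 hypoxia response genes 3 were higher and 1 lower, beside the same shares, and Ndrg1, a stress-induced gene, had 11.6 and 17.8 CPM in number 1 at day 6 against 2.56 to 4.54 CPM.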
